A study of Saccharomyces cerevisiae with 12 samples.

Results

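The oligosaccharyltransferase (OST) is the enzyme of the endoplasmic reticulum (ER) that attaches N-glycans to proteins, and its subunits are encoded in budding yeast by *STT3* (YGL022W), *OST1* (YJL002C), *OST2* (YOR103C), *OST3* (YOR085W), *OST4* (YDL232W), *OST5* (YGL226C-A), *OST6* (YML019W), *SWP1* (YMR149W) and *WBP1* (YEL002C). These 9 genes were taken by systematic name from the 7110 features of the count table, and all 9 passed the filter on low counts in each comparison. With tunicamycin, 7 of the 9 transcripts fell in wild-type cells, where 76.4% of all genes tested were called and 37.0% were lower. That count depended on how the libraries were scaled: scaled by total counts alone, 3 of the 9 fell and 2 rose. In *ups1*Δ cells, where 27.1% of all genes were called and 15.2% were higher, 2 of the 9 rose and 0 were called lower. In untreated *ups1*Δ cells, 8 of the 9 were lower than in untreated wild-type cells, with 52.3% of all genes called and 25.8% lower.

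N-glycosylation begins on the cytosolic face of the ER, where sugars are added to the lipid dolichol, and the lipid-linked oligosaccharide is then flipped and completed in the lumen. The OST transfers the finished glycan to asparagines of nascent proteins, next to the translocon through which these enter the ER. Stt3 is the catalytic subunit, Ost3 and Ost6 are alternative oxidoreductase subunits of which each complex holds one, and tunicamycin blocks the first step of the pathway, catalysed by Alg7, so that unglycosylated proteins activate the unfolded protein response (UPR).

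RNA was measured in 12 libraries, 3 in each of 4 groups of *Saccharomyces cerevisiae* strain S288c grown to log phase in synthetic glucose medium. The groups were untreated wild-type (WT) cells, untreated cells deleted for *UPS1*, and cells of each genotype treated with tunicamycin at 1 μg/ml for 3 h. Ups1 is a mitochondrial intermembrane-space protein that carries phosphatidic acid, and the study asked how its loss affects cellular stress signaling. The submitters describe the 3 libraries of a group as biological triplicates.

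The libraries held 4650828 to 7101983 counts (median 4936531). *UPS1* had 185 to 427 counts in the WT libraries and 0 to 2 in the *ups1*Δ libraries. The genotypes also differed in mating type and markers: in *ups1*Δ cells each of 7 genes specific to a-cells was lower and each of 4 specific to alpha-cells was higher, and *LYS2* and *MET17* had 0 counts in all WT libraries and at least 1250 and 1168 counts in the *ups1*Δ libraries. For every genotype comparison, the deletion therefore cannot be told apart from mating type or these markers. In 2 groups a library stood apart most. Among the tunicamycin-treated WT libraries, the chi-square of replicate 2 against counting noise was 29.1 and 31.2 per degree of freedom against replicates 1 and 3, which gave 10.3 with each other. Among the untreated *ups1*Δ libraries, that of replicate 3 was 16.7 and 20.1 against replicates 1 and 2, which gave 2.09 with each other. Replicate 1 of the untreated WT libraries stood apart less, with 6.08 and 6.18 against replicates 2 and 3, which gave 2.34 with each other. Replicate 3 of the treated *ups1*Δ libraries gave 6.18 and 7.27, against 3.70 between replicates 1 and 2. Results whose calls changed without treated WT replicate 2 or untreated *ups1*Δ replicate 3 are given with and without it.

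Positions refer to RefSeq's R64 assembly (sacCer3), from which the sequences were read. No member overlaps another annotated gene, and none of their 31-base words occurs in another coding sequence. The pair of cysteine codons of the thioredoxin-like domain is shown for *OST3* and *OST6* in capitals, since the balance of these alternative subunits was measured. The pair lies at codons 73 and 76 of *OST3* (chrXV:482240-482269, plus strand) and at codons 78 and 81 of *OST6* (chrXIII:233679-233708, plus strand), with a spacing of 3 codons in both.
OST3: gaaattggcTGTtctctgTGTctcgagcta
OST6: ggcatgagtTGCcaactaTGCcatgatttt

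The coding sequence of *OST4*, 111 bases long on chromosome IV (chrIV:38487-38597, plus strand), is shown whole because its shortness limits its level per kb, with the start and stop codons in capitals. *OST5*, the member with the largest change, is the only one with an intron (149 bases). Its coding exons are 21 and 240 bases long, and the first is shown in capitals with the beginning of the intron (chrVII:73129-73158, minus strand).
OST4: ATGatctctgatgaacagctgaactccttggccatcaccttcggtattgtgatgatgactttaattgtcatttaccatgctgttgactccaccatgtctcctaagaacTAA
OST5: ATGACTTATGAACAATTATACgtacgttgc

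The remaining members were *STT3* (chromosome VII, 452404 to 454560), *OST1* (X, 433221 to 434651), *OST2* (XV, 516449 to 516841), *SWP1* (XIII, 560996 to 561856) and *WBP1* (V, 148722 to 150014). *OST2* and *OST3* both lie on chromosome XV, and *OST6* and *SWP1* both on XIII, but none of the 9 is the nearest neighbour of another.

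Levels are given as CPM, which are counts scaled to the library total times its TMM factor, and differences as log2 fold changes from edgeR's quasi-likelihood test with p-values adjusted over all genes tested. A gene was called at an adjusted p-value under 0.05. In such bulk samples, fewer cells expressing a gene and less of its RNA per cell cannot be told apart.

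**Figure D1:**
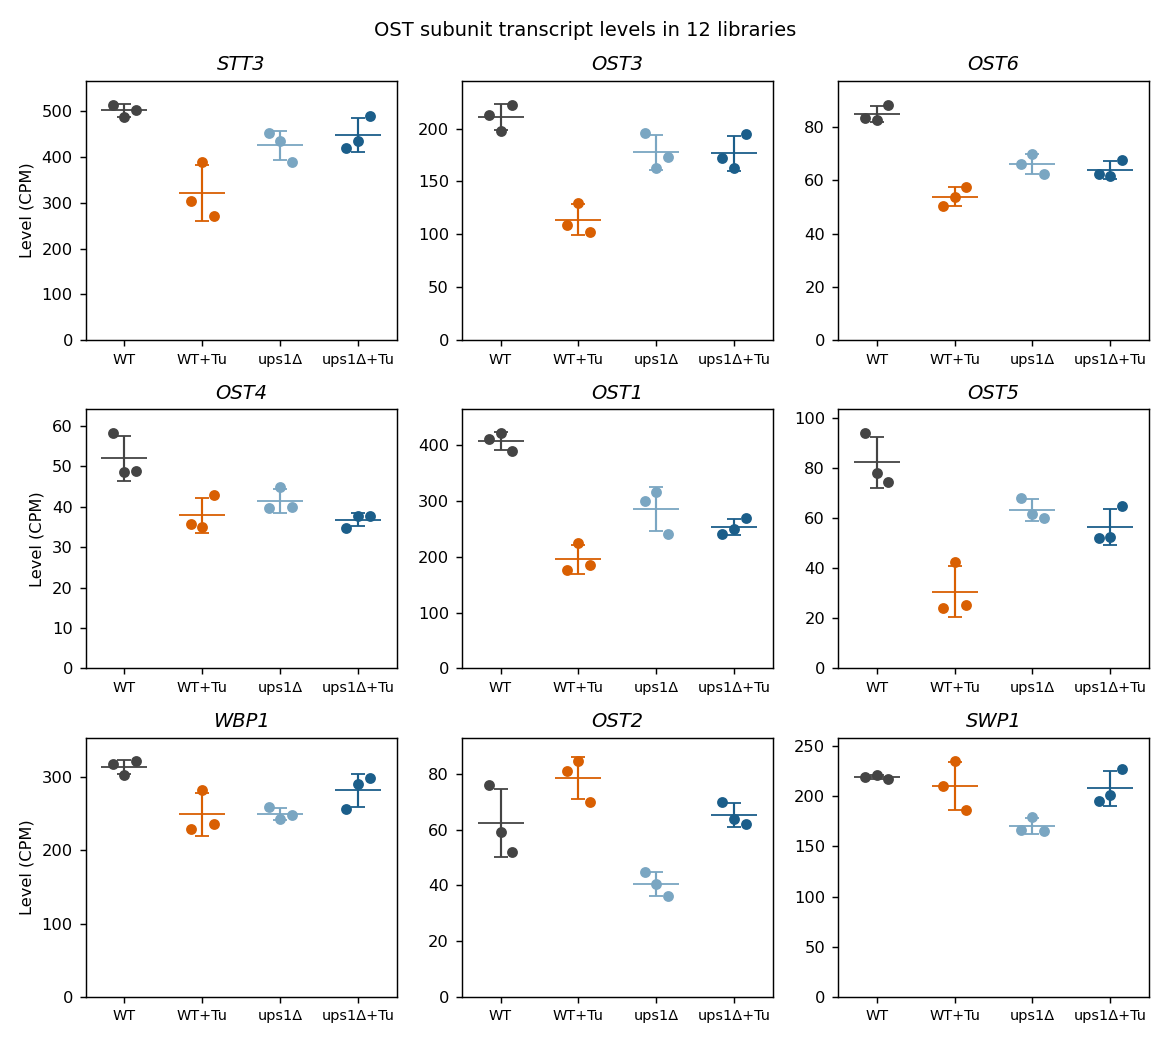
Transcript levels of the 9 OST subunit genes in 12 libraries, with each gene's level in CPM on a linear axis from 0. Points are libraries, in the order of replicates 1 to 3, and bars are the mean and SD of 3 libraries for WT, WT with tunicamycin (WT+Tu), *ups1*Δ and *ups1*Δ with tunicamycin (ups1Δ+Tu). *OST5* fell from 82.2 to 30.6 CPM in WT cells, whereas *OST2* had 62.4 and 78.5 CPM.

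In WT cells, tunicamycin lowered *OST5*, *OST1*, *OST3*, *OST6*, *STT3*, *OST4* and *WBP1*, and neither *OST2* nor *SWP1* was called. Of the 5785 genes tested, 76.4% were called, and 37.0% were called lower and 39.4% higher, against 7 lower and 0 higher of the 9 members by edgeR (0 higher by DESeq2 and 1 at an unadjusted p-value under 0.05). The median log2 fold change of the members was -0.66, and that of all genes was 0.05. The CPM of both groups did not overlap for the same 7 members, and 80.0% of all genes tested did not overlap.

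*STT3*, which encodes the catalytic subunit, had 515, 488 and 503 CPM in the untreated WT libraries and 304, 389 and 272 CPM in the treated ones. All treated libraries were below all untreated ones, with replicate 2 the highest of the treated. The log2 fold change was -0.66 ± 0.14 (SE), with an edgeR adjusted p-value of 0.00153.

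*OST3* had 213, 198 and 223 CPM without and 109, 130 and 103 CPM with tunicamycin. Its alternative *OST6* had 83.7, 82.7 and 88.6 CPM without and 50.4, 53.6 and 57.7 CPM with tunicamycin. For both genes the groups did not overlap. They changed by -0.91 ± 0.11 and -0.68 ± 0.09 (SE, edgeR adjusted p-values 2.80e-05 and 5.57e-05).

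*OST4* encodes a very small membrane protein that joins Ost3 or Ost6 to Stt3. It had 58.2, 48.7 and 48.9 CPM without and 35.8, 34.9 and 42.9 CPM with tunicamycin, again without overlap. Its log2 fold change was -0.48 ± 0.12 (SE, edgeR adjusted p-value 0.00423).

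The largest decreases were those of *OST5* and *OST1*, whose products form a subcomplex. *OST1*, the counterpart of mammalian ribophorin I, had 410.1, 421 and 389.8 CPM without and 176, 224 and 185 CPM with tunicamycin. *OST5* had 93.9, 78.1 and 74.5 CPM without and 24.2, 42.3 and 25.4 CPM with it. In both genes treated replicate 2 was the highest of the treated libraries and still below all untreated ones. *OST1* changed by -1.08 ± 0.11 and *OST5* by -1.44 ± 0.21 (SE), a level of 0.367 times that without tunicamycin (edgeR adjusted p-values 1.34e-05 and 0.000185). Without treated replicate 2, the change of *OST5* was -1.77.

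*WBP1*, *SWP1* and *OST2* encode the members of a further subcomplex, and their transcripts had the smallest absolute log2 differences of the 9. *WBP1* had 317, 302 and 321 CPM without and 229, 282 and 235 CPM with tunicamycin, a change of -0.35 ± 0.11 (SE, edgeR adjusted p-value 0.0122). This call was lost without untreated replicate 3 (edgeR adjusted p-value 0.0514). *SWP1*, the counterpart of mammalian ribophorin II, had 219, 221 and 217 CPM without and 210.1, 235 and 186 CPM with tunicamycin. The treated libraries lay on both sides of the untreated ones, and the log2 difference was -0.08 ± 0.10 (SE, edgeR adjusted p-value 0.491). Without treated replicate 2, *SWP1* was called lower at -0.18 (edgeR adjusted p-value 0.0447). *OST2* had 76.0, 59.3 and 51.9 CPM without and 81.1, 84.5 and 70.0 CPM with tunicamycin. Untreated replicate 1 lay within the treated range, and the log2 difference was 0.31 ± 0.14 (SE, edgeR adjusted p-value 0.0624). *OST2* was called higher without untreated replicate 1 (0.47, edgeR adjusted p-value 0.00837) and without treated replicate 3 (0.38, edgeR adjusted p-value 0.0481).

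**Figure D2:**
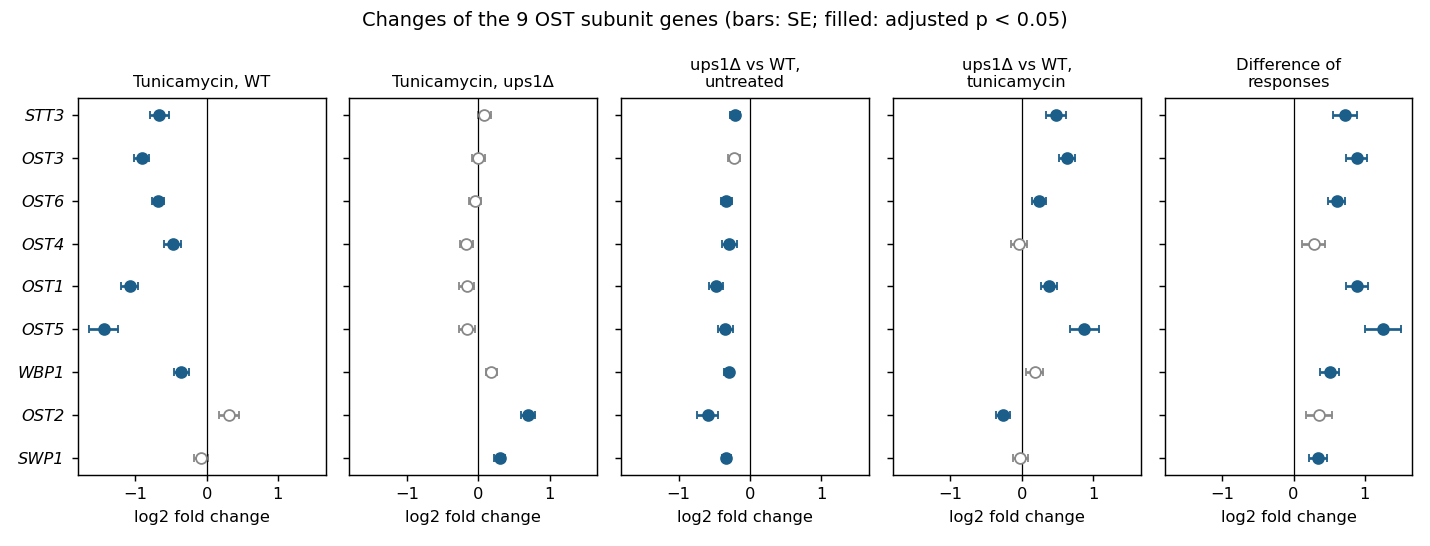
Log2 fold changes of the 9 OST subunit genes on the horizontal axis, with one panel for each comparison. Bars are standard errors and filled points passed an edgeR adjusted p-value of 0.05. The decreases with tunicamycin in WT cells reached -1.44 for *OST5*, whereas in *ups1*Δ cells the values lay between -0.17 for *OST4* and 0.70 for *OST2*.

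In *ups1*Δ cells, tunicamycin raised *OST2* and *SWP1*, and the 7 genes that fell in WT cells were not called. Of 5700 genes tested, 27.1% were called, 15.2% higher and 11.9% lower, against 2 higher and 0 lower of the members by edgeR (0 lower by DESeq2 and 0 at an unadjusted p-value under 0.05). The median log2 fold change was -0.00060 for the members and 0.0073 for all genes. *OST2* had 44.8, 40.4 and 36.3 CPM without and 70.1, 63.9 and 62.0 CPM with tunicamycin. The groups did not overlap, and *OST2* rose by 0.70 ± 0.10 (SE, edgeR adjusted p-value 0.00181). *SWP1* had 166, 179 and 165 CPM without and 195, 201 and 227 CPM with tunicamycin. It rose by 0.30 ± 0.08 (SE, edgeR adjusted p-value 0.0233), without overlap between the groups. The call of *SWP1* was lost without untreated replicate 1 (edgeR adjusted p-value 0.0880), treated replicate 2 (0.0680) or treated replicate 3 (0.0642).

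The other members gave small differences in either direction in *ups1*Δ cells. *STT3* had 452, 435 and 389.6 CPM without and 420.0, 436 and 490.2 CPM with tunicamycin, and the groups overlapped (log2 difference 0.08 ± 0.09, SE). *OST3* averaged 177 ± 16.9 (SD, n = 3) CPM in both groups. *OST5* averaged 63.2 ± 4.37 CPM without and 56.4 ± 7.22 CPM with tunicamycin (SD, n = 3). *OST4* was the only uncalled member without overlap, with 39.8, 44.9 and 39.8 CPM against 34.9, 37.7 and 37.7 CPM (log2 difference -0.17 ± 0.10, SE, edgeR adjusted p-value 0.228). In this comparison 46.2% of all genes did not overlap. Without untreated replicate 3, the library that stood apart and the lowest of its group for *OST1*, *OST1* was called lower (-0.28, edgeR adjusted p-value 0.00496) and 3 members were called in all, 2 higher and 1 lower.

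Without tunicamycin, all OST subunit genes had lower levels in *ups1*Δ than in WT cells, and 8 of 9 were called lower. Of 5692 genes tested, 52.3% were called, 25.8% lower and 26.5% higher, and the median log2 fold change was -0.33 for the members and 0.02 for all genes. The CPM of the groups did not overlap for any of the 9 members, and 64.2% of all genes did not overlap. The log2 differences ranged from -0.21 for *STT3* to -0.59 for *OST2*, and none of the 9 was called higher by edgeR or DESeq2 or had a higher mean.

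*OST2*, the counterpart of mammalian DAD1, had the largest deficit in *ups1*Δ cells, with 36.3 to 44.8 CPM against 51.9 to 76.0 CPM in WT cells (log2 fold change -0.59 ± 0.15, SE, edgeR adjusted p-value 0.00988). *OST1* followed, with 241 to 315 CPM in *ups1*Δ and 389.8 to 421 CPM in WT cells (-0.48 ± 0.10, SE, edgeR adjusted p-value 0.00360). *SWP1* and *WBP1* had the smallest standard errors, with changes of -0.33 ± 0.06 and -0.30 ± 0.06 (SE, edgeR adjusted p-values 0.00214 and 0.00433). *OST3* was not called, although its highest *ups1*Δ library, at 196 CPM, was below its lowest WT library, at 198 CPM (-0.22 ± 0.08, SE, edgeR adjusted p-value 0.0526). The calls of *OST4*, *OST5* and *STT3* (edgeR adjusted p-values 0.0473, 0.0230 and 0.0403) were close to the threshold. *OST4* was called only when *ups1*Δ replicate 2 was the library left out, *STT3* was lost without any WT library or *ups1*Δ replicate 2, and *OST5* without WT replicate 1 or *ups1*Δ replicate 2. Thus 5 members remained called without WT replicate 1 and 7 without *ups1*Δ replicate 3, and *OST3* was called without *ups1*Δ replicate 1 (-0.30).

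With tunicamycin in both genotypes, *OST1*, *OST3*, *OST5*, *OST6* and *STT3* were higher in *ups1*Δ than in WT cells, and *OST2* was lower. Of 5771 genes tested, 66.4% were called, 32.7% higher and 33.6% lower, against 5 higher and 1 lower of the members. The 5 members called higher did not overlap, as did 71.7% of all genes. *OST5* differed most, with 51.9, 52.5 and 64.7 CPM in *ups1*Δ cells against 24.2, 42.3 and 25.4 CPM in WT cells (0.88 ± 0.21, SE, edgeR adjusted p-value 0.00545). *OST3* differed by 0.63 ± 0.11 (SE, edgeR adjusted p-value 0.000550), with 163 to 195 CPM in *ups1*Δ and 103 to 130 CPM in WT cells. *STT3*, *OST1* and *OST6* differed by 0.48, 0.38 and 0.24 (edgeR adjusted p-values 0.0141, 0.0123 and 0.0425), and *OST2* by -0.27 with overlapping groups (0.0352). Only *OST3* and *OST5* remained called without *ups1*Δ treated replicate 3. *OST6* and *OST2* lost their calls whichever library was left out, except WT replicate 3. Without WT treated replicate 2 their edgeR adjusted p-values were 0.0575 and 0.0840, and *WBP1* was called higher at 0.28.

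The difference between the responses of the genotypes was tested as an interaction over all 12 libraries. It was positive for each of the 9 members, and 7 were called, against 66.0% of 5828 genes called in either direction and 32.9% in the positive and 33.2% in the negative direction. The median was 0.61 for the members and -0.03 for all genes. The value was largest for *OST5* (1.26 ± 0.25, SE), *OST1* (0.89 ± 0.16) and *OST3* (0.88 ± 0.15), all of which fell in WT cells and were not called in *ups1*Δ cells. *SWP1* was called as well (0.35 ± 0.13, SE, edgeR adjusted p-value 0.0273), but not without *ups1*Δ untreated replicate 1, WT treated replicate 3 or *ups1*Δ treated replicate 3. *OST2* and *OST4* were not called (0.36 ± 0.19 and 0.28 ± 0.16, SE, edgeR adjusted p-values 0.105 and 0.128), but *OST2* was called without WT untreated replicate 3 (0.49) and with a replicate block (0.35, edgeR adjusted p-value 0.0438), and *OST4* without WT treated replicate 3 (0.38). Without *ups1*Δ untreated replicate 3, 7 members were called. The 5 comparisons share libraries: the level in untreated WT cells enters both the response of WT cells and the untreated genotype comparison.

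The sum over the 9 genes was 1934 ± 45.0 CPM in untreated WT cells and 1291 ± 161 CPM with tunicamycin, 1520 ± 92.3 CPM in untreated *ups1*Δ cells and 1591 ± 109 CPM with tunicamycin (SD, n = 3). The treated WT libraries had 1219.5, 1476 and 1178 CPM, and replicate 2 lay within the range of the *ups1*Δ libraries, 1416 to 1713 CPM. Every treated WT library was below every untreated WT library.

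These directions depend on how libraries are scaled. As a share of all counts, with no TMM factor, the 9 genes took 0.165 to 0.173% in untreated and 0.146 to 0.181% in treated WT libraries, which overlap. TMM factors were 0.869 to 0.878 in untreated WT and 1.23 to 1.24 in treated WT libraries, and with library size only the median of all genes moved from 0.05 to 0.57. Relative to the median gene, the members' median change with tunicamycin in WT cells was -0.71 under both scalings, and 8 of the 9 were below the median gene under both. Taken as shares of all counts, with library size only, *OST1*, *OST3* and *OST5* were lower, *OST2* and *SWP1* were higher (0.83 and 0.44), and *STT3*, *OST4*, *OST6* and *WBP1* were not called. Neither scaling measures absolute amounts of RNA. Among all genes, 74.1% of those called with tunicamycin in WT cells were then higher, against 51.6% with TMM. The corresponding shares were 77.5% against 56.0% in *ups1*Δ cells, 29.4% against 49.3% between the treated genotypes and 29.4% against 49.8% for the interaction. Between the treated genotypes, library size only left *OST3* and *OST5* higher and *OST2* lower. *OST4* and *SWP1* became called lower, with a shift of the median of all genes to -0.32. Between the untreated genotypes, library size only left 6 of the 9 called lower and 0 higher. The calls of *OST4* and *STT3* were lost there (edgeR adjusted p-values 0.0943 and 0.106).

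Levels were compared between genes as CPM per kb of coding sequence. *OST4* had the highest and *OST6* the lowest mean in each of the 4 groups, differing 5.50-fold in untreated WT, 6.32-fold in treated WT, 5.65-fold in untreated *ups1*Δ and 5.18-fold in treated *ups1*Δ cells. With only 111 bases, the level per kb of *OST4* is uncertain. *OST5* (261 bases) and *OST2* (393 bases) are short too, and the coding length was used without a correction for fragment length, so their places are also less certain. In untreated WT cells the order was *OST4* (468 ± 49.2 CPM per kb), *OST5* (315 ± 39.4), *OST1* (284 ± 11.2), *SWP1* (254 ± 2.39), *WBP1* (242 ± 7.56), *STT3* (233 ± 6.31), *OST3* (201 ± 11.8), *OST2* (159 ± 31.3) and *OST6* (85.1 ± 3.13) (SD, n = 3). In this order the ranges of *OST5* and *OST1*, of *WBP1* and *STT3*, and of *OST3* and *OST2* overlapped. In treated WT cells *OST5* moved to place 7, at 117 ± 38.7 CPM per kb, and *OST2* to place 3, at 199.9 ± 19.3 CPM per kb (SD, n = 3). There the ranges of all neighbours from *OST2* to *OST3*, at place 8, overlapped. In untreated *ups1*Δ cells *OST5* was again at place 2 (242 ± 16.8 CPM per kb). Below it *OST1*, *SWP1*, *STT3* and *WBP1*, at 193 to 199.6 CPM per kb, overlapped in turn. *OST1* did not overlap with *OST5* above it, nor *WBP1* with *OST3* below it. In treated *ups1*Δ cells *SWP1* was at place 2 (241 ± 19.9 CPM per kb), with *WBP1*, *OST5* and *STT3* after it and overlapping in turn.

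The ratio of *OST3* to *OST6* per kb, which does not depend on library scaling, was 2.41, 2.27 and 2.39 in untreated WT libraries and 2.05, 2.30 and 1.69 in treated ones. In *ups1*Δ libraries it was 2.81, 2.21 and 2.64 without and 2.62, 2.50 and 2.73 with tunicamycin. *OST3* was thus the more abundant transcript in every library. Among the 4 comparisons tested, only the treated genotypes did not overlap, with a higher ratio in *ups1*Δ cells (log2 difference 0.39, exact permutation test, two-sided p = 0.1, the smallest that 3 libraries against 3 allow, and 0.4 after adjustment over 4 comparisons). The ratio was also higher in every treated *ups1*Δ library than in any untreated WT library, a pair of groups that was not tested. The ratio differed by -0.24 with tunicamycin in WT cells, by 0.04 in *ups1*Δ cells and by 0.11 between untreated genotypes (exact permutation p = 0.2, 0.9 and 0.4).

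**Figure D3:**
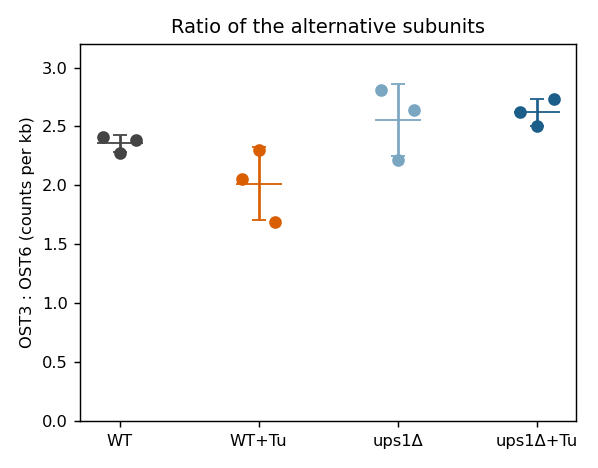
Ratio of *OST3* to *OST6* counts per kb of coding sequence on a linear axis from 0. Points are libraries and bars are the mean and SD of 3 libraries in each group. The means were 2.36 ± 0.0736, 2.01 ± 0.308, 2.56 ± 0.309 and 2.62 ± 0.116.

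Over the 12 libraries, the members did not all vary together. The Pearson correlation of the log2 level of a member with the mean of the other 8, as a description, was 0.89 for *OST1* and *WBP1*, 0.86 for *OST6*, 0.85 for *STT3*, 0.81 for *OST5*, 0.79 for *OST3* and 0.61 for *OST4*. It was 0.36 for *SWP1* and -0.16 for *OST2*. The 12 points share group differences and scaling.

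The genes outside the complex with the most similar profile over the 12 libraries were *ENV9* (r = 0.970), *DPI35* (0.967), *ECM33* (0.967), *ALG5* (0.963) and *VRG4* (0.956). *ALG5* encodes the enzyme that makes dolichyl-phosphate glucose, *VRG4* the Golgi GDP-mannose transporter and *ECM33* a cell wall protein. *ALG5* had 99.2 ± 10.8 CPM in untreated WT cells and 29.5 ± 7.29 CPM with tunicamycin, and 43.4 ± 5.36 and 43.0 ± 3.70 CPM in *ups1*Δ cells (SD, n = 3). *VRG4* had 379 ± 12.3 and 173 ± 26.8 CPM in WT and 198 ± 32.4 and 201 ± 26.1 CPM in *ups1*Δ cells (SD, n = 3). Both were therefore highest in untreated WT cells, and their means without and with tunicamycin in *ups1*Δ cells lay within 1 SD of each other.

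Other genes of the pathway were described as lists. Of all genes tested with tunicamycin, 39.4% were called higher and 37.0% lower in WT cells. In *ups1*Δ cells 15.2% were called higher and 11.9% lower. With library size only, 4709 of 5785 genes were called in WT cells, 74.1% of them higher. The same scaling called 1833 of 5700 genes in *ups1*Δ cells, 77.5% of them higher. Of 6 genes that extend the lipid-linked oligosaccharide in the lumen, 4 fell and 1 rose with tunicamycin in WT cells, and 2 rose and 0 fell in *ups1*Δ cells. Their medians were -0.61 and 0.07, beside 0.05 and 0.0073 for all genes. With library size only, 2 fell and 2 rose in WT cells (median -0.09, beside 0.57 for all genes). *ALG3*, a lumenal mannosyltransferase, fell by 0.89 in WT cells (edgeR adjusted p-value 1.03e-05), and *ALG12*, another lumenal mannosyltransferase, rose by 0.57 in *ups1*Δ cells (edgeR adjusted p-value 0.00131). Of 7 genes of the cytosolic steps, 2 rose and 2 fell in WT cells, and 2 rose and 1 fell in *ups1*Δ cells, among them *ALG7*, which encodes the target of tunicamycin (0.46, edgeR adjusted p-value 0.00840). With library size only, 3 of the 7 rose and 0 fell in either genotype. The 3 calls of the cytosolic list in *ups1*Δ cells became 1 without untreated replicate 1 or treated replicate 1 and 0 without treated replicate 2.

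Of 9 ER translocon genes, 7 fell and 1 rose with tunicamycin in WT cells, and 6 rose and 1 fell in *ups1*Δ cells. Of all genes tested, 37.0% fell and 39.4% rose in WT cells, and 15.2% rose and 11.9% fell in *ups1*Δ cells. The medians were -0.62 and 0.49, beside 0.05 and 0.0073 for all genes. With library size only, 2 rose and 1 fell in WT cells, and 6 rose and 0 fell in *ups1*Δ cells. *SSH1*, which encodes the channel of an alternative translocon, fell in both (-1.43 and -0.25, edgeR adjusted p-values 5.36e-07 and 0.0254), and *SEC62*, a subunit for post-translational import, rose in both (0.38 and 0.85, edgeR adjusted p-values 0.00537 and 0.000188). In untreated *ups1*Δ cells, 7 of these 9 genes were lower than in WT cells and 0 higher (median -0.38, beside 0.02 for all genes). Of all genes in that comparison, 25.8% were called lower and 26.5% higher. The interaction was positive and called for 8 of 9, against 32.9% of all genes, and for 6 of 9 with library size only.

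All 12 UPR target genes examined rose with tunicamycin in both genotypes, with medians of 1.12 in WT and 1.68 in *ups1*Δ cells. The largest increase was that of *ULI1* (4.05 and 4.36). In untreated *ups1*Δ cells 9 of the 12 were lower than in WT cells and 0 higher, with a median of -0.42, and the lowest was *KAR2*, which encodes the ER chaperone BiP (-0.89, edgeR adjusted p-value 1.97e-05). With tunicamycin, edgeR and DESeq2 called 0 of the 12 between genotypes, 1 was higher in *ups1*Δ cells at an unadjusted p-value under 0.05, and 5 were called higher without WT treated replicate 2, whereas 4 were called lower and 0 higher with library size only. The UPR targets thus rose in WT cells under the same treatment in which 7 OST subunit genes fell. Among all genes in that comparison, 39.4% were called higher and 37.0% lower. With library size only, all 12 targets still rose, whereas 3 OST subunit genes fell and 2 rose. Of 8 genes for dolichol and sugar donors, 2 rose and 3 fell in WT cells, with *ALG5* the lowest (-1.77), and 4 rose and 1 fell among the 7 tested in *ups1*Δ cells. Among all genes tested in *ups1*Δ cells, 15.2% were called higher and 11.9% lower. With library size only, 4 of the dolichol list rose and 1 fell in WT cells, and 4 rose and 0 fell in *ups1*Δ cells. The median of this list in WT cells moved from 0.12 to 0.64, and that of all genes from 0.05 to 0.57. Of 8 genes for N-glycan trimming and glycoprotein degradation, 4 rose and 1 fell in WT cells, beside 39.4% and 37.0% of all genes. With library size only 8 rose and 0 fell, where 4709 of 5785 genes were called, 74.1% of them higher. The median of the trimming list moved from 0.15 to 0.67, beside the same shift of all genes from 0.05 to 0.57. In *ups1*Δ cells *ROT2*, a subunit of glucosidase II, fell by 0.22 (edgeR adjusted p-value 0.0484), the only gene of the list called. This call was lost without any single library other than untreated replicate 3. In *ups1*Δ cells 0 of the list were called with DESeq2, no filter or the replicate block, and 2 rose and 0 fell with library size only.

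**Figure D4:**
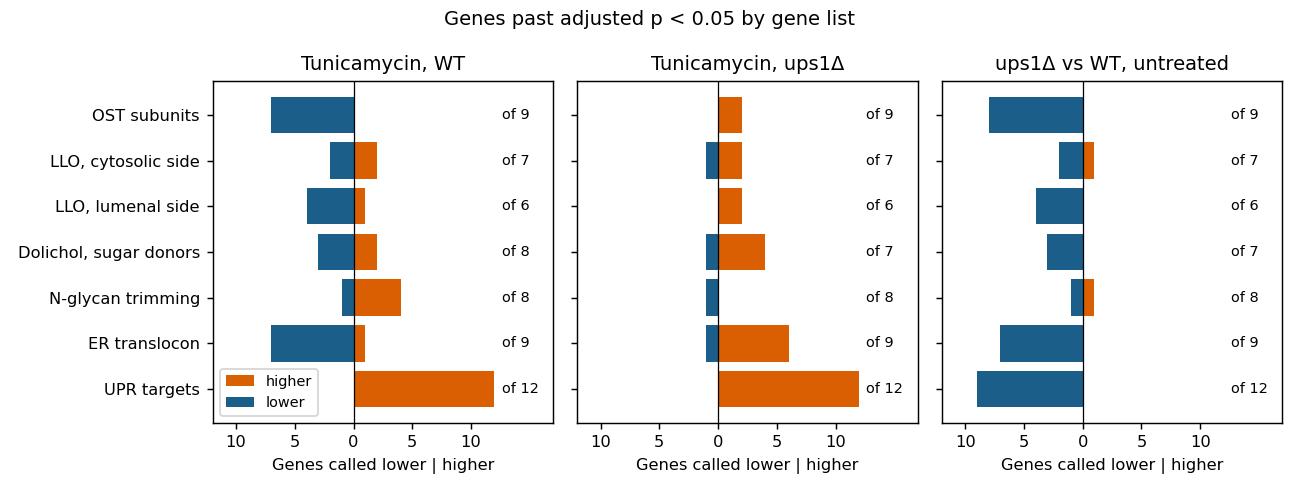
Number of genes called higher (right) or lower (left) in each list at an edgeR adjusted p-value of 0.05, for tunicamycin in WT cells, tunicamycin in *ups1*Δ cells, and untreated *ups1*Δ against WT cells. LLO is the lipid-linked oligosaccharide, and the number at the right of each panel is that of genes tested. With tunicamycin in WT cells, 7 OST subunit genes were lower and all 12 UPR targets higher. Of all genes tested there, 37.0% were called lower and 39.4% higher.

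The core motifs of UPR elements were searched on both strands within 500 bases upstream of the coding start. CAGCGTG was present for 139 of 6019 genes (2.31%), 2 of the 12 UPR targets and 0 of the 9 members. TACGTG was present for 783 genes (13.0%), 5 of the 12 UPR targets and 0 of the 9 members. The absence of these letters concerns this window only.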

How the data were processed

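RNA was measured in 12 poly(A)-selected, stranded libraries. The deposited table holds expected counts, which the authors estimated by kallisto (sacCer3) and left unnormalized, as whole numbers. The strand setting of kallisto is not given in the sources used here. The authors also deposited DESeq2 tables of normalized values, fold changes and p-values for 4 comparisons, which were not used.

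The deposited counts were tested in R 4.3.3 with edgeR 4.0.16 (TMM, filterByExpr, robust quasi-likelihood fits, Benjamini-Hochberg adjustment over all genes tested). Pairwise tests were fitted on the 6 libraries concerned, the interaction on all 12. CPM used TMM factors over all 12 libraries. The *OST3* to *OST6* ratio was tested by exact permutation. Steps were tested on simulated data. Gene names came from RefSeq R64. Like-pattern genes had a mean of at least 10 CPM and the highest correlation of log2(CPM + 1) with the mean of the standardized members. From each list, the largest called increase and decrease could be named. Members and lists were chosen with earlier results of these data known.

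Alternatives were DESeq2 1.42.0, RLE size factors or no TMM factor (library size only), a filter of 10 counts per library or none, a joint fit of all libraries, a replicate block, and leaving out each library. No pair of libraries was identical. P-values set a difference between groups against the spread between the 3 libraries of a group. In edgeR that spread was estimated over the groups fitted and partly from other genes.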

Additional observations from a re-analysis of the deposited data

Results flagged for a closer look

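For 7 of the 9 OST subunit genes, the response to tunicamycin differed between *ups1*Δ and WT cells by the interaction test over 12 libraries, 3 in each group, as it did for 66.0% of all genes tested (32.9% in the positive direction). The log2 differences were 0.89 for *OST1*, 0.88 for *OST3*, 1.26 for *OST5*, 0.61 for *OST6*, 0.35 for *SWP1*, 0.51 for *WBP1* and 0.72 for *STT3* (edgeR adjusted p-values 0.000208, 0.000117, 0.000610, 0.000422, 0.0273, 0.00365 and 0.00197). *OST1*, *OST3*, *OST5*, *OST6*, *STT3* and *WBP1* were lower in 3 of 3 treated WT libraries than in any untreated WT library, a comparison in which 80.0% of all genes did not overlap. *SWP1* was instead higher in 3 of 3 treated *ups1*Δ libraries than in any untreated one, where 46.2% of all genes did not overlap. With library size only, *OST1*, *OST3* and *OST5* remained called and the median of all genes moved from -0.03 to -0.42.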

How the results depend on the processing

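Of 630 values of single members under the alternatives, 544 kept their direction and their side of the threshold. Another 20 changed sign, and some of these also gained or lost their call. Among values that kept their sign, 49 were no longer called and 17 became called. With library size only, the sign changed for *OST4*, *SWP1* and *WBP1* with tunicamycin in WT cells (0.045, 0.44 and 0.17), *OST3* and *OST6* in *ups1*Δ cells (0.10 and 0.061), *OST6* and *WBP1* between treated genotypes (-0.057 and -0.12), and *OST2*, *OST4* and *SWP1* in the interaction (-0.031, -0.11 and -0.041), where 3 members were called. In each case the median of all genes shifted in the same direction. *OST3* in *ups1*Δ cells was 0.0015 with no filter.

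The replicate numbers do not pair the libraries: 1 of 18 correlations between same-numbered libraries was over 0.1. With the replicate block, 1 member was called in *ups1*Δ cells (*SWP1* lost, edgeR adjusted p-value 0.0529), *OST3* there was 0.00063, and *OST2* was called in WT cells (0.32, edgeR adjusted p-value 0.0250). Between untreated genotypes *OST3* became called and *OST4* was lost with the block (edgeR adjusted p-values 0.0336 and 0.0586), between treated genotypes *OST6* was lost (0.0569), and in the interaction *OST2* became called (0.0438). In one fit of all libraries, *OST2* became called in WT cells (edgeR adjusted p-value 0.0288) and was lost between treated genotypes (0.0772), and *OST5* and *STT3* were lost between untreated genotypes (0.0841 and 0.115).

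Leaving out 1 library at a time, 6 to 8 members were called with tunicamycin in WT cells, 1 to 3 in *ups1*Δ cells, 5 to 8 between untreated genotypes, 2 to 6 between treated genotypes and 6 to 8 in the interaction. Of the 5719 to 5885 genes tested in these fits, those called numbered 4097 to 4574, 728 to 1997, 2326 to 2989, 3394 to 4081 and 3666 to 4022, in the same order. The ranges that crossed 0 were -0.078 to 0.069 for *OST3* in *ups1*Δ cells, -0.097 to 0.060 for *OST4* and -0.097 to 0.067 for *SWP1* between treated genotypes, and -0.059 to 0.11 for the *OST3* to *OST6* ratio with tunicamycin in *ups1*Δ cells. DESeq2 called 7, 2, 7, 4 and 7 members in the 5 comparisons. Among all genes it called 4266 of 5785, 1466 of 5700, 2658 of 5692, 3656 of 5771 and 3773 of 5828. Each member had at least 139 counts in every library.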
